A study of Homo sapiens with 6 samples.

Results

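The genes for NF-kB subunits and for the inhibitors that NF-kB itself switches on were examined in cells of the human breast epithelial line MCF10A, which is immortal but does not form tumours, with an shRNA against FRY or a control shRNA. The FRY protein binds microtubules and NDR-family kinases. The 10 genes were NFKB1, NFKB2, RELA and RELB for subunits, NFKBIA, NFKBIE and NFKBIZ for proteins of the IkB family, and TNFAIP3, TNIP1 and TNIP3 for the ubiquitin-editing inhibitor A20 and its binding partners. Every probe set whose platform annotation named 1 of these genes alone was taken, which gave 17 of the 54675 probe sets in the values table and 10 of 19775 genes. The shFRY group was 3 samples of 1 puromycin-selected clone (10A-shFRY) that carried a FRY-targeting shRNA and was picked by the submitters for about 60% less FRY, and the control group was 3 samples of 1 clone (10A-CV) with a non-targeting shRNA. Within a clone the samples differed in passage number, which is not given per sample. P-values therefore reflect the spread among samples of 1 clone per group, and a difference between the shRNAs cannot be told apart from a difference between the clones. All cultures were monolayers taken at 70% confluence. Their mammary medium contained insulin at 10 ug/ml, hydrocortisone at 5 ug/ml, EGF at 20 ng/ml, bovine pituitary extract and antibiotics, and the labels name no cytokine treatment.

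NF-kB is a family of dimeric transcription factors that IkB proteins hold in the cytoplasm. Signals from interleukin-1, tumour necrosis factor or Toll-like receptors activate the IkB kinase complex, IkB is degraded, and the freed dimers bind kappaB sites and switch on inflammatory genes. Among those genes are several of NF-kB's own subunits and inhibitors, so that the response limits itself. In mammary and other epithelia the pathway drives chemokines, survival genes and antimicrobial proteins.

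Epithelial identity and the knockdown were checked first. All 12 measured epithelial marker genes lay above the array median of 3.04 (log2). By the test used below 8 of them were higher and 2 lower in shFRY, against 13.7% and 16.0% of all genes. The keratin genes KRT8 (log2 difference -0.93) and KRT18 (-0.37) were the 2 lower ones, and KRT14 (2.92) and LAMB3 (1.71) rose most. Their summed linear signal was 20718 to 21197 in the control samples and 30859 to 32970 in the shFRY samples. Of the leukocyte markers, 1 of 10 lay above that median by its mean over all 6 samples. PTPRC, the pan-leukocyte marker CD45, fell from 3.19 in control to 2.13 in shFRY cells (limma adjusted p = 0.00598), so that its control mean was slightly above the median. Their summed signal was 59.3 to 68.0 in control and 52.5 to 62.8 in shFRY samples. The summed signal of 10 fibroblast markers was lower in shFRY (84.0 to 94.9 against 252 to 320) and that of 7 adipocyte markers higher (187 to 230 against 75.4 to 129, mostly LPL, whose mean was 7.44 against 6.05), while 9 endothelial markers summed to 333 to 354 in control and 345 to 402 in shFRY samples. Markers of the same list did not all move alike. Of the endothelial markers KDR passed as lower (log2 difference -2.45), and TEK (1.85) and ROBO4 (0.99) as higher. Of the fibroblast markers DCN, LUM, DPT and COL3A1 passed as lower, and COL6A3 as higher (1.38). Each group was 1 clone of an epithelial line, and signal of these markers does not show that other cell types were present. In such bulk RNA fewer cells of a type and less RNA per cell cannot be told apart, and the part of these marker shifts in the results was not tested. FRY read lower on average at all 4 of its probe sets, and 204072_s_at passed (log2 difference -0.75, SE 0.19, limma adjusted p = 0.0223). No FRY probe set passed without control sample 1 or 3, without shFRY sample 1 or with the covariate given next, and at the brightest, 214319_at, the groups overlapped (-0.49, limma adjusted p = 0.203). The beta-actin 3' minus 5' signal, a measure of RNA length, was 2.33, 2.52 and 2.71 in the control samples and 2.88, 2.89 and 2.84 in the shFRY samples (log2). These groups did not overlap (two-sided exact permutation p = 0.1, which no comparison of 3 with 3 samples can go below). The like GAPDH 3' minus 5' signal was -0.08, -0.10 and -0.08 in the control samples and -0.10, -0.05 and -0.08 in the shFRY samples. Those groups overlapped (two-sided exact permutation p = 0.4). The beta-actin measure moved with every rise given below, and its part in them was not tested apart from the covariate fit. With this measure as a covariate 7 of the 17 probe sets passed, those of TNIP3, TNFAIP3 (both) and the brightest of NFKB1, NFKB2, NFKBIA and TNIP1, while 1.77% of all probe sets were called higher. Of the 7 probe sets that lost the call, NFKB2 209636_at went from 0.76 to 0.23. The others kept differences of like size: RELA 0.61 and 0.73, RELB 0.78, NFKBIA 231699_at 0.98, and NFKBIZ 1.35 and 1.11.

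The sequences before the transcription starts of the members were searched for the kappaB consensus, the decamer bound by NF-kB dimers. RefSeq promoter windows of GRCh38.p14, from 250 bases before to 50 after a start, were matched for 8 of the 10 genes with 16 starts (not RELB and NFKBIE). The consensus was searched on both strands and overlapping matches were counted as 1 place. It was present at 10 of the 16 starts, against 11.3% of all 35116 windows of that length, and in 7 of the 8 genes, against 13.3% of 27305 genes. RELA was the gene without a match. The 8 genes had 16 windows, more per gene than the 35116 windows of all 27305 genes, so the shares of genes are not alike. Because the members include genes known to be switched on by NF-kB, these shares do not test the array results. The 120 bases before the most upstream start are shown for 5 genes with a match in this stretch and for RELA, with matches in capitals and the rest in lower case, 5' to 3' on the gene's strand.
TNIP3, chr4:121227484-121227603, minus strand: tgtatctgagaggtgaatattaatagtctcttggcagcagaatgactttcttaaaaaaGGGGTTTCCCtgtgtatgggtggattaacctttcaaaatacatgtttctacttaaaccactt
TNFAIP3, chr6:137867139-137867258, plus strand: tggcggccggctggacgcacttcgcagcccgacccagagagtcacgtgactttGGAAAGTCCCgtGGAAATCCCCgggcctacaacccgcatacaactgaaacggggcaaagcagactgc
TNIP1, chr5:151081035-151081154, minus strand: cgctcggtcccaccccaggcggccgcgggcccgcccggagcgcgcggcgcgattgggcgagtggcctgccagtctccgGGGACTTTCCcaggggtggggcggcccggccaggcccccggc
NFKBIA, chr14:35404750-35404869, minus strand: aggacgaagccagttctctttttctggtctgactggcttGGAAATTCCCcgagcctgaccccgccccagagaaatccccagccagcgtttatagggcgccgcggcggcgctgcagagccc
NFKB1, chr4:102501239-102501358, plus strand: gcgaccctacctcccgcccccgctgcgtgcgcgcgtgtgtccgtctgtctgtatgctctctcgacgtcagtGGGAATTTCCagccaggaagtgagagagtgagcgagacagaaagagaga
RELA, chr11:65663858-65663977, minus strand: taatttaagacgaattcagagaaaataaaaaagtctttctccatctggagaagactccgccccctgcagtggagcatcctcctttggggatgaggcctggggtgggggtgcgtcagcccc

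In TNIP3, the member with the largest rise in shFRY cells, the match GGGGTTTCCC lay at bases -62 to -53 from the start and reads as a match on both strands. Of the 3 TNIP3 starts, numbered from the most upstream, start 3 had GGGAAATCCC at nearly the same distance, -61 to -52, and start 2 had no match. TNFAIP3, with the next largest rise, had 2 separate matches 2 bases apart, GGAAAGTCCC at -67 to -58 and GGAAATCCCC at -55 to -46, both on the opposite strand. The TNIP1 match GGGACTTTCC lay at -42 to -33, the NFKB1 match GGGAATTTCC at -49 to -40 and the NFKBIA match GGAAATTCCC at -81 to -72. Start 2 of TNIP1 and start 2 of NFKB1 had no match. NFKB2 had no match at its most upstream start and 2 places at each of its other starts, among them the palindromic GGGAATTCCC at -107 to -98. The NFKBIZ matches lay further out, GGGAATTTCC at -223 to -214 and GGGGTTTCCC at -239 to -230. All these positions lie before the start. For comparison, 17 of 29 other NF-kB target genes with a window held a match. A match is a run of letters and does not show binding.

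**Figure D1:**
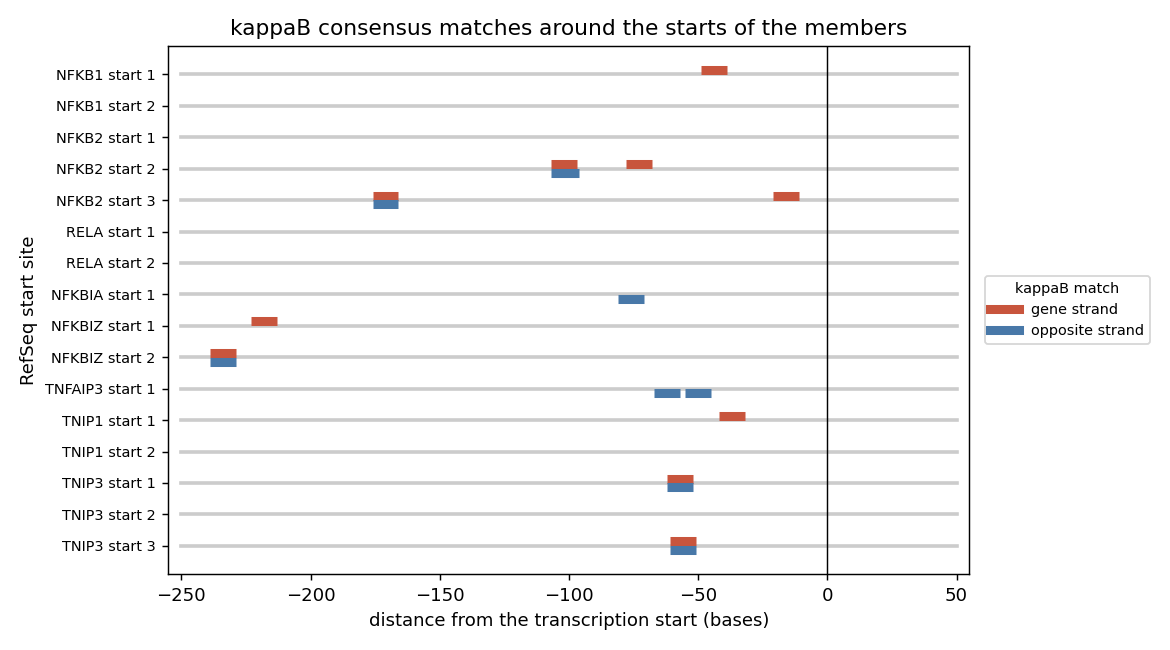
Positions of kappaB consensus matches in the 16 RefSeq promoter windows of 8 members; the x axis is the distance in bases from each start, grey lines are the searched windows, and colour gives the strand. All matches of TNIP3, TNFAIP3, TNIP1, NFKBIA and NFKB1 lie within 81 bases before a start, and neither RELA window holds one.

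Nearly all members were higher in the shFRY cells. Of the 17 probe sets, 14 rose and 0 fell at a limma adjusted p of 0.05, where 10.9% of all 54613 probe sets other than controls rose and 12.2% fell. All 3 shFRY samples lay above all 3 control samples at 16 of the 17 probe sets, against 20.2% of all probe sets. The exception was 211524_at of NFKB2. With 1 probe set per gene, the brightest, 9 of the 10 genes rose and 0 fell, against 13.7% and 16.0% of 19775 genes, and 6 of the 10 rose at least 2-fold, against 3.42%. The median log2 difference was 1.40 over the 10 genes and 0.03 over all genes. It was 1.03 over the 4 subunit genes and 1.67 over the 6 inhibitor and cofactor genes.

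**Figure D2:**
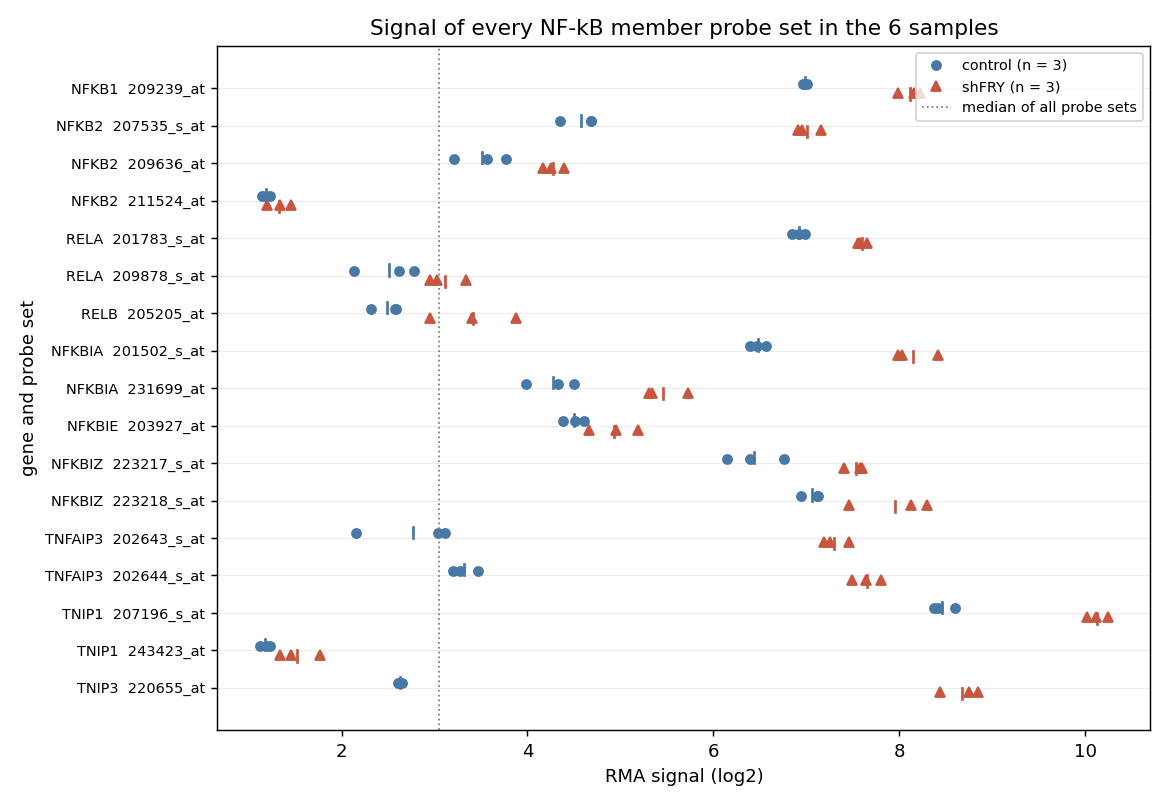
Log2 RMA signal (x axis) of the 17 member probe sets in the 3 control samples (circles) and the 3 shFRY samples (triangles), with short bars at group means and the median of all probe sets dotted. The groups are separate at 16 probe sets; the widest gaps are those of TNIP3 and TNFAIP3, whose control samples lie near or below the dotted line.

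All 4 subunit genes rose, and NFKB2 rose most where its brightest probe set was used, but not by the mean of its probe sets (1.11, against 1.14 for NFKB1). NFKB2 encodes p100, which holds RelB in the cytoplasm as an IkB-like precursor and is processed to the DNA-binding subunit p52. At its brightest probe set, 207535_s_at, the control samples read 4.35, 4.69 and 4.68 and the shFRY samples 6.91, 6.95 and 7.15 (log2 signal). The groups were far apart, the log2 difference being 2.43 (SE 0.13, limma adjusted p = 1.48e-05), a 5.39-fold rise with a 95% confidence interval of 4.37 to 6.66. NFKB1 encodes the corresponding precursor p105 and its product p50, the usual partner of RelA. Its control samples read 6.98, 7.01 and 6.96 and its shFRY samples 7.98, 8.16 and 8.22 at 209239_at. The control values were nearly identical and every shFRY value was higher by about the same amount, a 2.20-fold rise (log2 difference 1.14, SE 0.11, limma adjusted p = 0.000201).

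RELA and RELB, whose proteins carry transactivation domains, rose by less. RELA encodes p65, the main activating subunit of the canonical pathway, and its samples at 201783_s_at read 6.92, 6.85 and 6.99 in control and 7.55, 7.66 and 7.58 in shFRY cells. This was a small but separate shift, 1.60-fold (log2 difference 0.68, SE 0.10, limma adjusted p = 0.00192). The dimmer RELA probe set 209878_s_at moved by a like amount (0.599, SE 0.19) with an adjusted p at the threshold (limma 0.0495), and lost the call without control sample 2 or 3 or without any 1 of the 3 shFRY samples, at limma adjusted p-values of 0.0642 to 0.14. RELB encodes the subunit of the non-canonical pathway that pairs with p52. It was dim in the control samples, at 2.32, 2.58 and 2.57, and varied in the shFRY samples, at 2.96, 3.40 and 3.88. The groups did not overlap, and the difference was 0.92 (SE 0.22, limma adjusted p = 0.0165), but without control sample 1 it was 0.83 and did not pass (limma adjusted p = 0.0693).

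All 3 IkB family genes read higher in shFRY cells, and NFKBIA and NFKBIZ passed. NFKBIA encodes IkB-alpha, which is resynthesised after each round of activation and carries NF-kB back out of the nucleus. At 201502_s_at the control samples read 6.57, 6.39 and 6.47 and the shFRY samples 7.99, 8.03 and 8.42. Sample 3 was the highest of the shFRY group, and every one was well above the control range, a 3.19-fold rise (log2 difference 1.67, SE 0.14, limma adjusted p = 0.000112). The dimmer NFKBIA probe set 231699_at rose as well, by 1.19 (SE 0.17, limma adjusted p = 0.00160). NFKBIZ encodes IkB-zeta, a nuclear cofactor that NF-kB needs for a subset of its target genes rather than an inhibitor held in the cytoplasm. Its probe set 223217_s_at read 6.40, 6.76 and 6.15 in control and 7.60, 7.40 and 7.58 in shFRY samples (log2 difference 1.10, SE 0.16, limma adjusted p = 0.00189). At 223218_s_at the control samples read 7.12, 7.12 and 6.95 and the shFRY samples 7.46, 8.12 and 8.29, so shFRY sample 1 stood only a little above the control samples there (0.90, SE 0.21, limma adjusted p = 0.0149). Without control sample 3 this probe set did not pass (limma adjusted p = 0.0519). NFKBIE encodes IkB-epsilon, which acts later than IkB-alpha. Its samples read 4.51, 4.61 and 4.38 in control and 4.66, 4.96 and 5.19 in shFRY cells. The groups were separate by a narrow gap and the difference of 0.43 (SE 0.15) did not pass (limma adjusted p = 0.0744). Its 95% confidence interval was 0.09 to 0.78. This probe set passed without shFRY sample 1 (0.57, limma adjusted p = 0.0251) and after another quantile normalization (0.52, limma adjusted p = 0.0308). It did not pass under the other 11 alternatives. There the limma adjusted p ran from 0.055 (upper 60% of probe sets) to 0.370 (beta-actin covariate).

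The largest rises were those of TNIP3 and TNFAIP3 in the A20 group, while TNIP1 rose less than NFKB2 at the brightest probe sets. TNFAIP3 encodes A20, which removes and adds ubiquitin chains on signalling proteins upstream of the IkB kinases and shuts the pathway down. At 202644_s_at the control samples read 3.27, 3.20 and 3.47 and the shFRY samples 7.80, 7.64 and 7.49. All control values lay close to the array median and all shFRY values far above it, a 20.2-fold rise with a 95% confidence interval of 16.5 to 24.7 (log2 difference 4.33, SE 0.13, limma adjusted p = 9.01e-07). Its other probe set, 202643_s_at, gave 4.53 (SE 0.24, limma adjusted p = 1.25e-05). There control sample 1 read 2.16, below the other control samples at 3.04 and 3.11, whereas the shFRY samples read 7.25, 7.46 and 7.19. TNIP1 encodes ABIN-1, a ubiquitin-binding partner of A20 that was already high in control cells. Its samples at 207196_s_at read 8.37, 8.60 and 8.42 in control and 10.02, 10.12 and 10.24 in shFRY cells, a 3.17-fold rise (log2 difference 1.67, SE 0.12, limma adjusted p = 4.53e-05). TNIP3 encodes ABIN-3, a related A20-binding protein. Its control samples read 2.62, 2.61 and 2.65, below the array median, and its shFRY samples 8.43, 8.75 and 8.84. No member differed more between the groups: the ratio of RMA signals was 66.1 with a 95% confidence interval of 54.0 to 81.1 (log2 difference 6.05, SE 0.13, limma adjusted p = 1.77e-07). The values used here hold no detection call, so the control signal of TNIP3 is not shown to lie above background, and its ratio and rank describe signals rather than amounts of RNA. RMA as usually run compresses differences at such dim signals, which holds for TNFAIP3 in control cells too.

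At the brightest probe set of each gene, TNIP3, TNFAIP3 and NFKB2 had the largest changes and were separate from each other. The changes of single shFRY samples from the control mean ran from 5.81 to 6.22 for TNIP3, 4.18 to 4.49 for TNFAIP3 and 2.34 to 2.58 for NFKB2, with no overlap between these genes. The place of NFKB2 depended on the probe set: with the mean of all probe sets of a gene TNIP3 (6.05) and TNFAIP3 (4.43) still led, but NFKB2 was at 1.11, below NFKBIA (1.43) and NFKB1 (1.14), and TNIP1 was at 1.004. At the brightest probe sets NFKBIA (1.52 to 1.94) and TNIP1 (1.56 to 1.78) overlapped with each other, and both lay above NFKB1 (1.003 to 1.24). From NFKB1 downwards each gene overlapped with the next: RELB ran from 0.46 to 1.38, NFKBIZ from 0.39 to 1.23, RELA from 0.64 to 0.74 and NFKBIE from 0.15 to 0.69. At the brightest probe set of 9 of the 10 genes the lowest value of the shFRY group was that of sample 1, most clearly in RELB, NFKBIZ and NFKBIE. In TNFAIP3 at 202644_s_at sample 1 was instead the highest. Among all 19775 genes ranked by log2 difference, TNIP3 was number 5 and TNFAIP3 number 22, while RELA was number 1256 and NFKBIE number 2446.

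**Figure D3:**
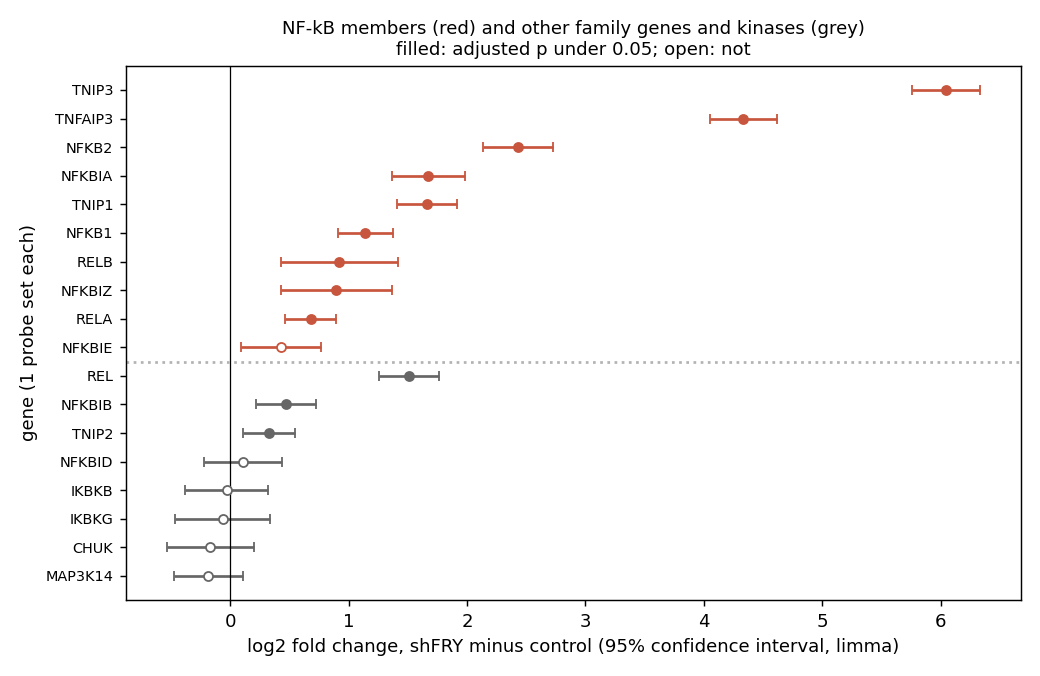
Log2 fold change of the 10 members (red) and of 8 other NF-kB family genes and kinases (grey), shFRY minus control, with 95% confidence intervals from limma (n = 3 per group, 1 probe set per gene). Filled points passed an adjusted p of 0.05. Of the 10 members 9 lie above 0 and passed, as did the grey genes REL, NFKBIB and TNIP2. IKBKB, IKBKG, CHUK, MAP3K14 and NFKBID lie near 0.

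Probe sets of the same gene did not always give the same size of change. For NFKB2, 209636_at rose by 0.76 (SE 0.15, limma adjusted p = 0.00871) and 211524_at, at the bottom of the signal range with control values of 1.19, 1.23 and 1.15, did not pass (0.14, limma adjusted p = 0.403). The change at 207535_s_at exceeded that at 209636_at by 1.67 and that at 211524_at by 2.29 (two-sided exact permutation p = 0.1 for each). For TNIP1, 243423_at was equally dim and did not pass (0.34, SE 0.13, limma adjusted p = 0.0999), 1.32 less than 207196_s_at (exact permutation p = 0.1). The paired probe sets of RELA, NFKBIZ, TNFAIP3 and NFKBIA differed in their change by 0.08, -0.20, -0.20 and 0.49, with exact permutation p-values of 0.8, 0.5, 0.7 and 0.2. The brightest probe sets of NFKB2, RELA, NFKBIA, NFKBIZ, TNFAIP3 and TNIP1 end in _s_at, a kind that can read several transcripts. With _s_at and _x_at probe sets left out, 7 of the 10 genes could be tested and 5 passed, NFKB2 at 0.76 and NFKBIA at 1.19, while TNIP1, represented by 243423_at, did not. Of all genes in that fit 11.7% were called higher.

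For the 6 members that rose at least 2-fold, the genes with the most similar profile were sought, by the root mean square distance over the 6 samples after subtraction of each gene's control mean. CXCL2, a neutrophil chemokine, was nearest to TNIP3 at a distance of 0.12 (log2 units), followed by PID1 (0.31) and IL13RA2 (0.37). CEBPD, a transcription factor gene of the acute-phase response, was nearest to NFKBIA (0.05). The adaptor gene BCL10 was second to UBAP1 among those nearest to NFKB1 (0.06 each), and the AP-1 gene JUN was second to NRIP1 for TNIP1 (0.07 and 0.06). The third genes for NFKBIA, NFKB1 and TNIP1 were FOSL2 (0.12), RIT1 (0.07) and TXNIP (0.07), and the second for NFKBIA was ARHGEF28 (0.11). Nearest to NFKB2 were COL4A1 (0.13), DAPP1 (0.14) and CES1 (0.14), and nearest to TNFAIP3 were LINC02806 (0.14), ITGB3 (0.18) and PIK3CD (0.19). None of these 18 places was taken by another member. The distance depends largely on the size of the log2 difference (6.05 for TNIP3 and 6.11 for CXCL2), which differed among most members.

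The remaining subunit gene moved like its relatives, while other IkB and A20-partner genes moved less. REL, which encodes the activating subunit c-Rel, rose at all 5 of its probe sets by 1.51 to 2.02, and at 235242_at from 4.54 ± 0.07 to 6.04 ± 0.15 (log2 signal, SD, n = 3 each; limma adjusted p = 7.29e-05). NFKBIB, for IkB-beta, rose at 1 of 3 probe sets (228388_at, 0.47, SE 0.12, limma adjusted p = 0.0195), and TNIP2, for ABIN-2, at 1 of 3 (48531_at, 0.33, SE 0.10, limma adjusted p = 0.0493). The shFRY samples lay above the control samples without overlap at all 3 probe sets of either gene, as they did at 20.2% of all probe sets. NFKBID, for the nuclear protein IkB-NS, was dim and did not pass at any of 3 probe sets (-0.34 to 0.11, lowest limma adjusted p = 0.143). In the list of 12 further subunits, IkB proteins and cofactors, of which BCL3 was not analysed here, 4 of 11 rose and 0 fell, against 13.7% and 16.0% of all genes, with a median of 0.30: REL, NFKBIL1 (0.66), NFKBIB and TNIP2. With the beta-actin covariate 1 of the 11 rose, against 2.76% of all genes.

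The kinases that release NF-kB did not pass in either direction. CHUK and IKBKB encode the catalytic IkB kinases alpha and beta, IKBKG the regulatory subunit NEMO, and MAP3K14 the kinase NIK of the non-canonical pathway. With 1 probe set per gene their log2 differences were -0.17 (95% confidence interval -0.54 to 0.20), -0.03 (-0.38 to 0.32), -0.07 (-0.46 to 0.33) and -0.19 (-0.48 to 0.11), with limma adjusted p-values of 0.480, 0.90, 0.815 and 0.317. The dimmer IKBKB probe sets read 0.31 and 0.33 higher and did not pass (limma adjusted p = 0.134 and 0.0539). Their shFRY samples lay above the control samples without overlap, as at 20.2% of all probe sets. Among all 27 measured adaptors and kinases 12 rose and 2 fell, against the 13.7% and 16.0% of all genes, with a median of 0.14. IRAK2, a kinase of interleukin-1 and Toll-like receptor signalling, rose by 5.44 (SE 0.21, limma adjusted p = 2.26e-06). RIPK2, the kinase downstream of NOD receptors (1.27), TRAF1 (1.21) and TAB2, which links ubiquitin chains to the kinase TAK1 (1.19), came next.

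Ligand and receptor genes went in both directions, 10 of 23 rising and 6 falling with a median of 0.16, where 13.7% of all genes rose and 16.0% fell. The interleukin-1 alpha gene IL1A (5.02), the receptor genes TLR2 (3.69) and NOD2 (3.07) and the lymphotoxin gene LTB (1.72) had the largest changes. TLR4 (-1.43, limma adjusted p = 0.000883) had the largest fall; it lies outside the rule for naming genes and was chosen after its value was seen. Ubiquitin enzymes and ubiquitin receptors of the pathway were more often higher, 9 of 19 rising and 1 falling with a median of 0.24, beside the same 13.7% and 16.0%. CYLD, a deubiquitinase that restrains NF-kB alongside A20, rose by 2.41 (SE 0.12, limma adjusted p = 6.99e-06). RBCK1, encoding the HOIL-1 subunit of the linear ubiquitin ligase (1.52), and OPTN, encoding the ubiquitin receptor optineurin (1.21), also rose, and USP18, a protease for the ubiquitin-like ISG15, fell (-1.06). With the beta-actin covariate 5 adaptor and kinase genes, 6 ligand and receptor genes and 3 ubiquitin genes were called higher, and 2.76% of all genes.

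Of 34 measured NF-kB target genes outside the members, 26 rose and 0 fell, against 13.7% and 16.0% of all genes, with a median of 2.02 against 0.03. With the beta-actin covariate 22 rose, against 2.76% of all genes. CXCL1 (7.49), CXCL3 (7.28), CXCL2 (6.11) and CXCL8 (5.54), all neutrophil chemokine genes, had the largest rises. The other 8 genes, CCL2, CCL5, CX3CL1, CXCL5, VCAM1, TNFRSF9, BCL2L1 and CD83, did not pass, at log2 differences from -0.42 to 0.71. These counts describe the lists, which were written with earlier results of these data known, and no test of a list as a whole was made.

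**Figure D4:**
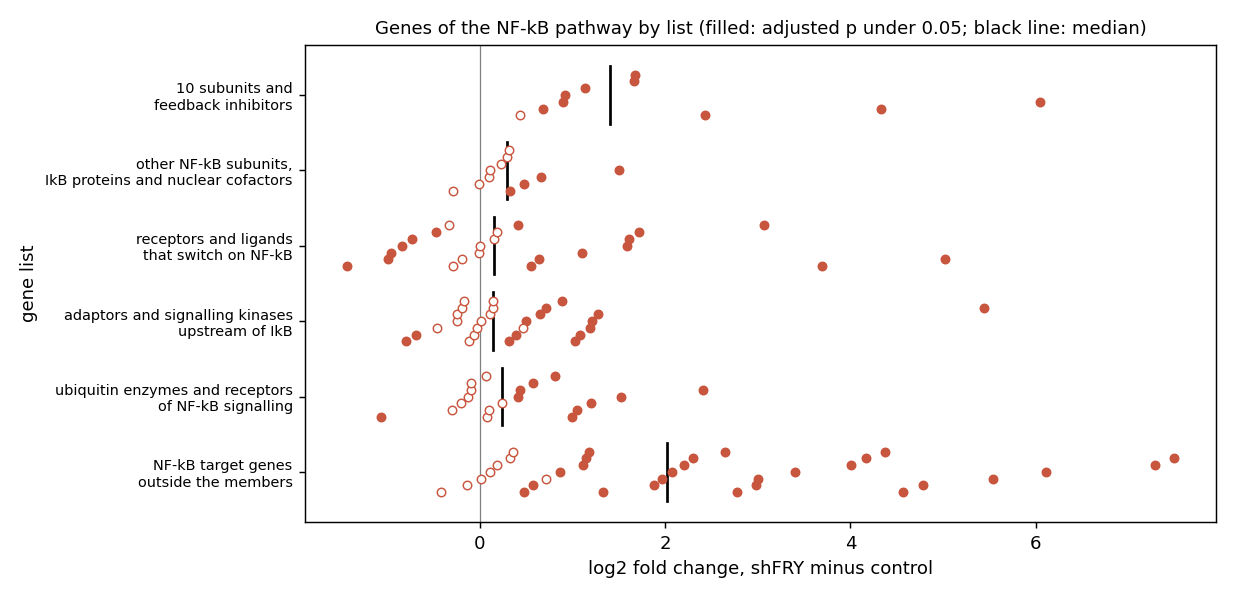
Log2 fold change of each measured gene (points; vertical spread only separates them) in the 10 members and 5 further NF-kB pathway lists, shFRY minus control, filled where the limma adjusted p was under 0.05, with the list median as a black line. The medians are 1.40 for the members, 2.02 for other target genes and between 0.14 and 0.30 for the rest.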

How the data were processed

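Gene expression in 6 MCF10A samples, 3 control and 3 shFRY, was read on 1-colour arrays, each sample on its own array, after 40 ng of total RNA was amplified and labelled with biotin (per the labels' protocols). The submitters' processing notes name RMA, and the deposited table holds log2 signals, judged by their range; the version and settings of RMA are not stated in any source read here. Since RMA normally makes the distributions of arrays alike, a change shared by all genes cannot be seen. Sample medians were 3.02 to 3.06, and correlations over probe sets were 0.992 to 0.995 within groups and 0.972 to 0.978 between them. Precision is limited by there being 3 arrays per group.

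Values were used as deposited. Of the 54675 probe sets, 41091 had 1 gene symbol, updated through Entrez IDs to RefSeq (GRCh38.p14). Groups were compared by limma (version 3.58.1, under R 4.3.3; lmFit, then eBayes without a filter, 4 residual degrees of freedom), over the 54613 probe sets other than controls for values of single probe sets, and over 19775 genes, each at its probe set with the highest mean, for gene counts and lists. The Benjamini-Hochberg adjusted p had to be under 0.05. Sequences are RefSeq's. Named genes are all members, FRY, further family genes and kinases, up to 4 passing genes with the largest change in each list, and the 3 nearest profiles of each member that rose at least 2-fold. The members and lists were chosen with earlier results of these data known. The gene fit was tested on simulated data in which far fewer genes changed than here. There 41.8% of 1.5-fold, 68.7% of 2-fold and 98.5% of 4-fold changes were called. A gene that was not called may therefore still have changed. The alternatives, given at the end, cover scaling, variance model, filter, array weights, the replicate number, RNA length, choice of probe sets and left-out samples.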

Additional observations from a re-analysis of the deposited data

How the results depend on the processing

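No member probe set or gene changed direction under any of the alternatives, and 339 of 366 comparisons of a member with its value as reported stayed on the same side of the threshold. The beta-actin covariate moved most counts: 7 member probe sets were called higher, and in the lists 1 further subunit or IkB gene, 6 receptor or ligand genes (0 lower), 5 adaptor or kinase genes (1 lower) and 3 ubiquitin genes (0 lower). The covariate leaves fewer residual degrees of freedom. It also did not overlap between the groups, so the fit can separate it from the group difference only in part. With it 2.76% of all genes were called higher. Without _s_at and _x_at probe sets fewer genes were tested, and 5 of 7 member genes, 5 of 19 receptor or ligand genes, 7 of 22 adaptor or kinase genes and 17 of 24 target genes rose. Of all genes in that fit 11.7% rose. The ubiquitin list had 2 falls instead of 1 with quantile normalization, the upper 60% of probe sets, array weights, the mean of probe sets or no _s_at and _x_at probe sets, and 3 with the trend and robust options; the cause was not tested. Leaving out 1 sample at a time gave 12 to 14 member probe sets and 8 to 10 member genes called higher. In these fits 7.77% to 10.2% of all probe sets and 10.4% to 13.4% of all genes were called higher. Falls among adaptors and kinases were 1 to 3 (1 without any 1 of the shFRY samples, 3 without control sample 2). Falls were 1 to 2 among ubiquitin genes and 0 to 1 among target genes (1 without shFRY sample 3). FRY had 0 to 2 probe sets called lower (0 without control sample 1 or 3 or shFRY sample 1). FRY had 2 calls with the upper 60% of probe sets and 0 with the covariate. The replicate numbers did not pair the samples: deviations from the group means correlated between same-numbered samples at 0.00, -0.00 and 0.04. With the replicate number as a block, 14 member probe sets and 9 member genes were called higher and 2 FRY probe sets lower. Of all probe sets 9.46%, and of all genes 12.2%, were then called higher. The dimmest probe sets, 211524_at and 243423_at, lie where array signal limits what can be seen.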
